A study of Mus musculus with 10 samples.

Results

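In all, 10 genes that mark lung macrophages were followed in the lungs of young mice with increased pulmonary flow (IPF). They were found by their symbol in the deposited table, and all 10 were present among its 54532 genes. Marco, Chil3 and Ear2 stood for alveolar macrophages, C1qa, C1qb and C1qc for interstitial macrophages, and Mrc1, Cd68, Adgre1 and Lyz2 for macrophages of more than 1 kind. IPF mice were wild-type C57BL/6J pups in which the abdominal aorta was joined to the inferior vena cava at postnatal day 7 (P7), which sends more blood through the lungs. Sham mice were of the same strain and had the operation without the fistula. Whole-lung mRNA was sequenced at P30 in 5 mice of each group, and the methods state that pups of both sexes were used.

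Alveolar macrophages live in the airspaces, where they clear inhaled particles and spent surfactant, and they depend on GM-CSF and the transcription factor PPARγ. Interstitial macrophages lie in the lung tissue around vessels, nerves and airways, and many of them derive from blood monocytes. They make C1q, the recognition subunit of the classical complement pathway, which also tags dying cells for uptake. C1q is assembled from chains encoded by C1qa, C1qb and C1qc, a compact gene cluster expressed mainly by macrophages. None of these genes belongs to a single cell type: Lyz2 is also made by alveolar type 2 cells, neutrophils and monocytes, Mrc1 by both macrophage types and some endothelial cells, and C1q by some dendritic cells.

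Each value is in FPKM, fragments scaled by gene length and library size, so levels can be compared between genes. Depth recovered from the table was 15483046 to 19026843 reads per sample. Sham replicate 1 stood apart: its mean Spearman correlation with the other 9 libraries was 0.962, against 0.967 to 0.976 for the others, and it was the lowest of all 10 libraries for 6 of the 10 macrophage genes. The groups also differed in sex-linked RNA. Xist, which is expressed from the inactive X chromosome, had at least 8504 reads in every IPF library and at most 21 in any sham library, while the 4 Y-linked genes examined had 0 reads in every IPF library. All 12 circadian clock genes examined passed the test, 3 higher and 9 lower in IPF. An effect of flow cannot be told apart from one of sex or of the hour of collection in any comparison given here.

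None of the 10 macrophage genes passed the test between IPF and sham lungs. When log2(FPKM + 0.1) was fitted with limma and p-values were adjusted (Benjamini-Hochberg) over 20448 genes, 0 of 10 reached an adjusted p under 0.05, against 5.85% of all genes tested. At an unadjusted p under 0.05 there were 4 of 10 (Ear2, C1qb, C1qc and Adgre1), against 19.5% of all genes, and voom on the recovered reads also called 0, as did the same test without sham replicate 1. Of the other alternatives, the replicate number as a block called 2 (C1qa and C1qc, against 5.11% of all genes), and leaving out sham replicate 5 called 1 (Ear2, against 4.79%). The log2 fold change was positive for 7 and negative for 3, with a median of 0.25, beside 0.00 over all genes tested. Groups did not overlap for 1 of 10, C1qb, against 7.29% of all genes. Over the 10 genes, the 95% intervals of the fold change reached no lower than 0.687-fold and no higher than 1.85-fold. A gene that was not called may still have changed within its interval. All 10 had passed the filter on low values, a mean of at least 0.1 FPKM.

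**Figure D1:**
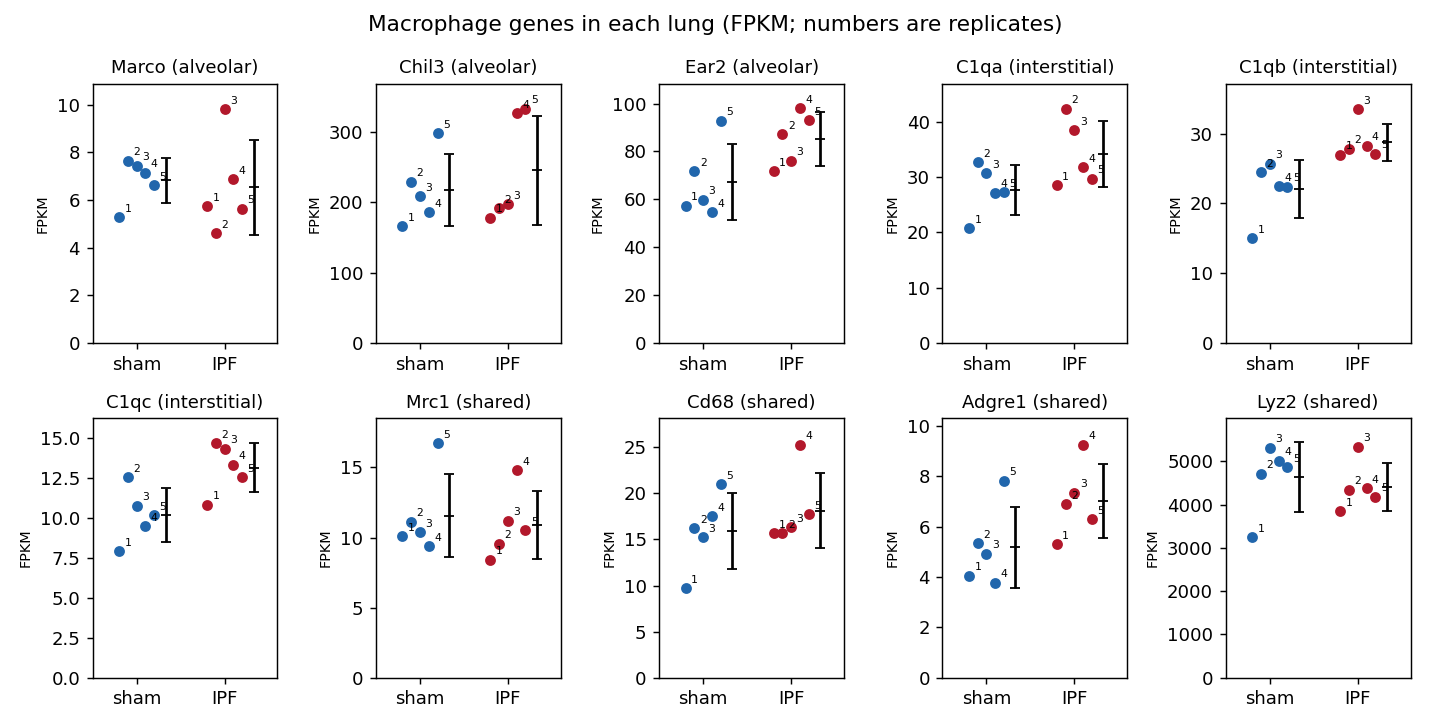
FPKM of the 10 macrophage genes in each lung, sham in blue and IPF in red, with the replicate number beside each point and the group mean ± SD (n = 5) in black. C1qb is the gene whose groups do not overlap, with IPF lungs from 27.0 to 33.5 FPKM and sham lungs from 14.999 to 25.7.

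The interstitial markers lie side by side on the minus strand of chromosome 4 (GRCm38, the build of the table's positions). C1qb (ENSMUSG00000036905) spans 136880129 to 136886187, C1qc (ENSMUSG00000036896) 136889804 to 136893065 and C1qa (ENSMUSG00000036887) 136895917 to 136898803. The sequences around the start sites of C1qb and C1qc are shown because C1qb was the gene whose groups did not overlap and C1qc its neighbour in the cluster. Each is the RefSeq window from 250 bases before to 50 after the start (GRCm38.p6), at chr4:136886151-136886450 for C1qb and chr4:136892865-136893164 for C1qc, both minus strand and written 5′ to 3′. Capitals mark GAGGAA or its reverse complement TTCCTC, the core bound by PU.1, the transcription factor (Spi1) that macrophages need.
C1qb: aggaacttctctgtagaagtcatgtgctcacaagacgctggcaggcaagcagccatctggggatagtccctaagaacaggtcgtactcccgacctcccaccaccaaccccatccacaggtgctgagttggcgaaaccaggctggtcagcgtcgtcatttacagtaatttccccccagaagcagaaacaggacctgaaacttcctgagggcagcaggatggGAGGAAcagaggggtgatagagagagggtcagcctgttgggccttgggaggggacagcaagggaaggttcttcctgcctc
C1qc: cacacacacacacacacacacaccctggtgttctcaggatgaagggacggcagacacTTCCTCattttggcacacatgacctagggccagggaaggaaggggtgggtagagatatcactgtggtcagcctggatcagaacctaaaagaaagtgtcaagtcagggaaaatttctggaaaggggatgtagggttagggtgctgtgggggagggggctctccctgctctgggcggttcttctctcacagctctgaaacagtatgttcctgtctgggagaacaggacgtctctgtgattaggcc
Both windows held 1 match, at position -30 from the start in C1qb and at -193 in C1qc. The same core, on either strand, was present in 28.3% of 32851 promoter windows of this length, and in 5 of the 8 macrophage genes with a window in the RefSeq table (Marco, C1qb, C1qc, Mrc1 and Cd68). The interferon-stimulated response element GAAANNGAAA, searched on both strands, was present in 3.44% of windows and in 0 of the 8. A match describes letters only, and binding was not measured.

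All 3 C1q genes had higher means in IPF lungs, by 1.2 to 1.3 times, and none passed the test. C1qb had 27.0, 27.8, 33.5, 28.3 and 27.1 FPKM in IPF replicates 1 to 5, and 14.999, 24.5, 25.7, 22.5 and 22.4 in sham replicates 1 to 5. Every IPF lung lay above every sham lung, although IPF replicate 1 and sham replicate 3 were only 1.29 FPKM apart. Its means were 28.7 ± 2.70 and 22.0 ± 4.16 FPKM (SD, n = 5), and its log2 fold change was 0.40 ± 0.13 (SE, limma adjusted p = 0.107). C1qc had 10.8, 14.7, 14.4, 13.4 and 12.6 FPKM in IPF and 7.92, 12.6, 10.8, 9.48 and 10.2 in sham. For this chain 3 of 5 IPF lungs were above all sham lungs, and the log2 difference was 0.37 ± 0.12 (limma adjusted p = 0.103). C1qa had 28.5, 42.3, 38.5, 31.8 and 29.7 FPKM in IPF and 20.7, 32.7, 30.7, 27.1 and 27.2 in sham. Only 2 of 5 IPF lungs, replicates 2 and 3, were above all sham lungs, and its log2 fold change was 0.30 ± 0.14 (limma adjusted p = 0.258).

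Sham replicate 1 had the lowest value of all 10 lungs for each C1q gene. Without it the log2 fold changes were 0.20 for C1qa, 0.27 for C1qb and 0.29 for C1qc, and none was called. Between 252 and 757 reads lay behind each C1q value. In whole lung, more cells of a type cannot be told apart from more RNA per cell.

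The alveolar markers differed in direction, and none passed the test. Marco, a scavenger receptor for bacteria and particles (ENSMUSG00000026390; chromosome 1, 120474538 to 120505024, minus strand), had 5.74, 4.61, 9.81, 6.87 and 5.64 FPKM in IPF replicates 1 to 5 and 5.26, 7.65, 7.44, 7.14 and 6.61 in sham. IPF replicate 3 was the highest and IPF replicate 2 the lowest of all 10, so the sham lungs lay inside the range of the IPF lungs. Marco's log2 fold change came to -0.10 ± 0.18 (limma adjusted p = 0.822), and it turned to 0.02 without IPF replicate 2.

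Chil3 encodes Ym1, a chitinase-like protein secreted by alveolar macrophages (ENSMUSG00000040809; chromosome 3, 106147554 to 106167564, minus strand). It had 178.0, 191.5, 197.1, 326.1 and 332.8 FPKM in IPF and 165.8, 228.9, 208.6, 185.4 and 298.3 in sham. IPF replicates 4 and 5 were above all sham lungs, whereas the other 3 were below sham replicates 2, 3 and 5. The fitted difference was 0.15 ± 0.21 on the log2 scale (limma adjusted p = 0.762). It was smaller without IPF replicate 5 (0.02), IPF replicate 4 (0.03), sham replicate 1 (0.06) or sham replicate 4 (0.10), and larger without IPF replicate 1 (0.25), IPF replicate 2 (0.22) or sham replicate 5 (0.27).

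Ear2 encodes an eosinophil-associated ribonuclease that mouse alveolar macrophages express (ENSMUSG00000072596; chromosome 14, 44102654 to 44103534, plus strand). It had 71.7, 87.1, 76.1, 98.0 and 93.0 FPKM in IPF and 57.3, 71.7, 59.9, 54.7 and 92.9 in sham. Sham replicate 5 sat among the IPF lungs, sham replicate 2 was level with the lowest of them, and the other 3 sham lungs were below all IPF lungs. IPF lungs were 0.36 ± 0.14 higher on the log2 scale (limma adjusted p = 0.194), and without sham replicate 5 it was 0.48 and passed (limma adjusted p = 0.0384). Ear2 has close copies, and reads may have been split between them: Ear1 had a mean of 20.1 FPKM, Ear6 0.239, and Ear10 was at 0 reads in every library. Eosinophils also express Ear2, and the 7 eosinophil genes listed summed to 3.47 to 5.58 FPKM in IPF and 2.33 to 5.35 in sham, most of it from Siglecf, which alveolar macrophages share (3.71 and 2.98 FPKM). Epx, Prg2 and Ccr3 had group means of at most 0.129 FPKM, and Il5ra had 0.225 and 0.122, Alox15 0.152 and 0.0891 and Ear6 0.169 and 0.308 in IPF and sham. Of the 4 genes tested, 3 had a positive log2 fold change, with a median of 0.39, and 0 were called by limma (0 also at an unadjusted p under 0.05). Ear2 also overlaps Gm49101 on the opposite strand, which had 0.128 FPKM, and whether strand was used in counting is not given in the sources used here.

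**Figure D2:**
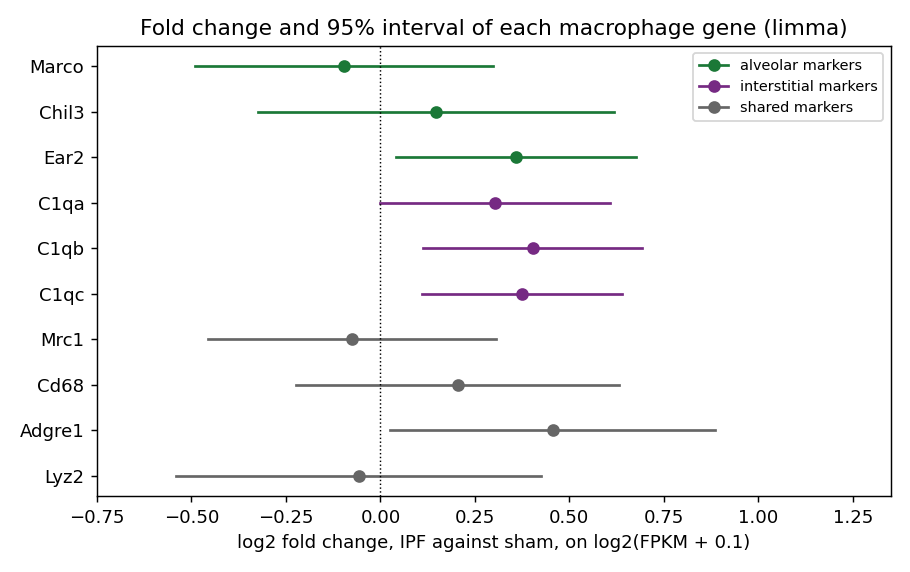
Log2 fold change of IPF against sham with its 95% interval from limma for each macrophage gene, coloured by alveolar, interstitial or shared marker. The intervals of Ear2, C1qb, C1qc and Adgre1 lie above 0, and no gene passed after adjustment over 20448 genes.

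Among the markers shared by macrophages, Adgre1, which encodes the surface receptor F4/80 (ENSMUSG00000004730; chromosome 17, 57358691 to 57483527, plus strand), had the highest fold change of the 10 genes. Its mean was 7.02 ± 1.47 FPKM in IPF (5.30 to 9.25) and 5.18 ± 1.61 in sham (3.76 to 7.82), and its log2 fold change was 0.46 ± 0.20 (limma adjusted p = 0.224). Of the IPF lungs, 1 was above all sham lungs. Cd68, a lysosomal membrane protein (ENSMUSG00000018774; chromosome 11, 69664213 to 69666153, minus strand), had 18.1 ± 4.08 FPKM in IPF and 15.9 ± 4.10 in sham (log2 fold change 0.20 ± 0.19, limma adjusted p = 0.615), and only 0.04 on the log2 scale without sham replicate 1 and 0.08 without IPF replicate 4. Without sham replicate 5 the log2 fold change of Cd68 was larger, at 0.31.

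Mrc1, the mannose receptor CD206 (ENSMUSG00000026712; chromosome 2, 14229392 to 14332057, plus strand), had 10.9 ± 2.41 FPKM in IPF and 11.5 ± 2.96 in sham. Its log2 fold change of -0.08 ± 0.17 (limma adjusted p = 0.860) turned to 0.07 without sham replicate 5, the highest of the 10 lungs. Lyz2, lysozyme M (ENSMUSG00000069516; chromosome 10, 117277331 to 117282321, minus strand), had 4414 ± 556 FPKM in IPF and 4632 ± 805 in sham (log2 fold change -0.06 ± 0.22, limma adjusted p = 0.923). Leaving out single lungs moved this value between -0.18 (without sham replicate 1) and -0.00314 (without sham replicate 3). Its neighbour and near copy Lyz1 had a mean of 437 FPKM, so reads may have been shared. Of 10 markers of alveolar type 2 cells 0 were called by limma (1 at an unadjusted p under 0.05), and their median log2 fold change was -0.01.

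The levels of the 10 genes spread widely. Lyz2, at a mean of 4523 FPKM over 10 lungs, was the 5th most abundant of all genes, and was followed by Chil3 (231 FPKM), Ear2 (76.2), C1qa (30.9), C1qb (25.4), Cd68 (17.0), C1qc (11.7), Mrc1 (11.2), Marco (6.68) and Adgre1 (6.10). The ranges of neighbours were apart for the first 3 steps and overlapped from C1qa onward. C1qc was above Mrc1 in 7 of 10 lungs and Marco above Adgre1 in 6 of 10, so these neighbours did not differ beyond their spread.

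The balance of the alveolar to the interstitial markers was followed as the mean log2(FPKM + 0.1) of Marco, Chil3 and Ear2 minus that of C1qa, C1qb and C1qc. It was 1.05, 0.72, 1.00, 1.40 and 1.37 in IPF replicates 1 to 5 and 1.45, 1.21, 1.15, 1.21 and 1.63 in sham. The 3 IPF lungs with replicate numbers 1 to 3 lay below all sham lungs, while IPF replicates 4 and 5 lay among them. The means were 1.11 ± 0.28 and 1.33 ± 0.20 (SD, n = 5), a difference of -0.22, whose size lies between the SDs of the sham and IPF groups. The interstitial mean alone was 4.55 ± 0.16 in IPF and 4.19 ± 0.26 in sham, with 4 of 5 IPF lungs above all sham lungs. The alveolar mean was 5.66 ± 0.24 and 5.52 ± 0.24, with 1 IPF lung above all sham lungs. These are descriptions with no test, since the genes were chosen with results known.

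**Figure D3:**
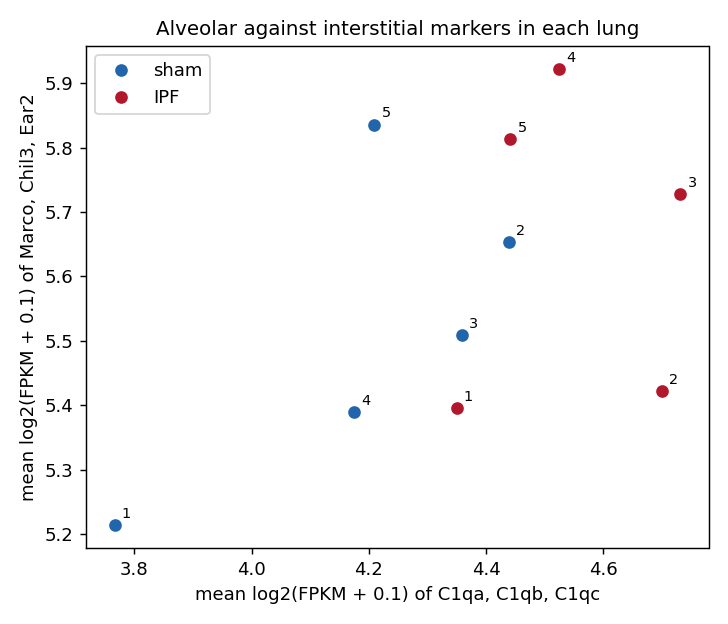
Mean log2(FPKM + 0.1) of the alveolar markers (vertical axis) against that of the interstitial markers (horizontal axis) in each lung, numbered by replicate, sham in blue and IPF in red. IPF lungs reach from 4.35 to 4.73 on the horizontal axis and sham lungs from 3.77 to 4.44, while both groups share most of the vertical range; sham replicate 1 is lowest on both axes.

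Mice of the same group were then compared with each other, to ask which markers varied together. After subtracting each group's mean, 15 pairs of the alveolar and interstitial markers were correlated over the 10 lungs, with two-sided exact permutation tests within groups and Benjamini-Hochberg adjustment over the 15. C1qa and C1qc varied most closely (Pearson r = 0.92, exact permutation p = 0.000347, adjusted p = 0.00521; Spearman rho = 0.93, p = 0.000556, adjusted p = 0.00833), and r was 0.89 without the 2 lungs farthest from the median. Their ratio was 2.59 ± 0.22 in IPF and 2.72 ± 0.13 in sham, a coefficient of variation of 6.83% over 10 lungs. C1qb followed both less closely: r was 0.77 with each (exact permutation p = 0.0185 with C1qa and 0.0231 with C1qc, both adjusted to 0.0694), and rho was 0.68 with C1qa and 0.65 with C1qc (exact permutation p = 0.0347 and 0.0508, adjusted p = 0.130 and 0.1525). Without the 2 farthest lungs r was 0.95 with C1qa and 0.65 with C1qc.

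Of the alveolar markers, only Chil3 and Ear2 passed as a pair. Their r was 0.84 (exact permutation p = 0.00132, adjusted p = 0.00990) and their rho 0.79 (exact permutation p = 0.0104, adjusted p = 0.0521), with r = 0.79 without the 2 farthest lungs. Marco did not pass with either, at r = 0.11 with Chil3 (exact permutation p = 0.819) and -0.06 with Ear2 (exact permutation p = 0.855). It passed instead with an interstitial marker, C1qb (r = 0.72, exact permutation p = 0.00431, adjusted p = 0.0215; rho = 0.84, p = 0.00465, adjusted p = 0.0349), and r was 0.90 without IPF replicates 2 and 3. Without the same 2 lungs, r was 0.91 between Marco and C1qa (0.37 over all 10) and 0.85 between Marco and C1qc (0.44 over all 10), so that C1qb alone passed rests on these lungs. The ratio of Marco to Chil3 varied by 32.0% over 10 lungs and that of Chil3 to Ear2 by 15.5%. Over all 10 lungs, no other pair of an alveolar with an interstitial marker passed. Lungs share their library, so a difference in tissue sampled or RNA quality enters every gene of that lung.

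For comparison, promoter windows of the alveolar pair are given, at chr3:106167515-106167814 (minus strand) for Chil3 and chr14:44102404-44102703 (plus strand) for Ear2 (RefSeq, GRCm38.p6). Neither held the PU.1 core on either strand, so no letters are in capitals.
Chil3: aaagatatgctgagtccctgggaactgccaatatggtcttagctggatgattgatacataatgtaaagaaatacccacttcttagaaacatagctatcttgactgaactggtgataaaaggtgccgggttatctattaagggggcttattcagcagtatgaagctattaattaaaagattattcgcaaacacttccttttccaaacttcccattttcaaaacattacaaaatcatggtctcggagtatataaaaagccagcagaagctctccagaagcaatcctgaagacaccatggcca
Ear2: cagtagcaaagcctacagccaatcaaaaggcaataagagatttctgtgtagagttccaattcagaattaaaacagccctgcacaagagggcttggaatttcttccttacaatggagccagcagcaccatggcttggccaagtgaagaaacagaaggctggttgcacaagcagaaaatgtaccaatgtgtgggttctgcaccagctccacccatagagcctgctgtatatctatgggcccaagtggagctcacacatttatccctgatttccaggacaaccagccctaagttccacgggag
That these letters are missing from a 300-base window says nothing of PU.1 elsewhere at these genes.

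Other genes of the same cells were examined through lists written from general knowledge, each tested in the same fit. Outside the 10 genes, 55 genes of the alveolar, interstitial and general macrophage lists were tested, and 7 were called (12.7%, beside 5.85% of all genes tested). Of 24 alveolar macrophage genes tested, 1 was higher and 1 lower, with a median log2 fold change of 0.02, and 5 had an unadjusted p under 0.05, a share close to the 19.5% of all genes. The lower gene, Bhlhe41, a transcriptional repressor of alveolar macrophages that also takes part in the circadian clock, fell from 2.59 ± 0.30 to 1.09 ± 0.15 FPKM (log2 fold change -1.18 ± 0.12, limma adjusted p = 0.000435). Defining genes of the airspace cells were not called: Siglecf had 3.71 and 2.98 FPKM in IPF and sham, Itgax 7.94 and 8.36, Pparg 2.82 and 3.05, and Car4, which capillary endothelium also expresses, 94.0 and 82.7.

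The interstitial list held called genes of both directions. Of 20 genes 1 was higher and 2 were lower, while 16 had a positive log2 fold change and the median was 0.36. An unadjusted p under 0.05 was reached by 13 of the 20, beside 19.5% of all genes, and groups did not overlap for 6, beside 7.29%. Cx3cr1, the fractalkine receptor, which monocytes also carry, had 4.68, 5.51, 5.06, 4.91 and 4.33 FPKM in IPF and 2.20, 2.57, 2.27, 2.13 and 3.23 in sham. All IPF lungs were above all sham lungs (log2 fold change 0.97 ± 0.12, limma adjusted p = 0.00118). Cd163, the haemoglobin scavenger receptor of perivascular macrophages, went the other way, with 1.36, 1.72, 1.93, 2.16 and 2.54 FPKM in IPF and 3.90, 3.07, 3.11, 2.76 and 3.21 in sham (-0.72 ± 0.15, limma adjusted p = 0.0201). Lyve1, which marks the same perivascular cells but mostly lymphatic endothelium, had means of 179 and 245 FPKM and was not called (limma adjusted p = 0.128). The other lower gene, Cbr2, had 1304 and 2324 FPKM (limma adjusted p = 0.0343), and it is also a gene of airway club cells. Its call was lost with no filter on low values and in 7 of 10 fits without 1 lung (IPF replicates 1, 2 and 4 and sham replicates 2 to 5), with a limma adjusted p of up to 0.0887. Cd163 lost its call without IPF replicate 2 (limma adjusted p = 0.0542), and Cx3cr1 kept its call without any 1 lung.

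Most general macrophage genes had higher means in IPF lungs. Of 21 tested, 18 had a positive log2 fold change, with a median of 0.38, and 2 were called. An unadjusted p under 0.05 was reached by 12 of the 21, beside 19.5% of all genes, and groups did not overlap for 5, beside 7.29%. These lists include the C1q genes and the shared markers described above. Fcgr1, the high-affinity IgG receptor, had 2.00, 2.32, 2.00, 2.76 and 2.36 FPKM in IPF and 1.03, 0.948, 1.03, 0.858 and 1.90 in sham, with sham replicate 5 just below the lowest IPF lung (0.97 ± 0.19, limma adjusted p = 0.0133). Fcer1g, the signalling chain that Fcgr1 pairs with, rose from 29.7 ± 3.68 to 39.4 ± 4.95 FPKM (0.41 ± 0.11, limma adjusted p = 0.0468). The call of Fcer1g was lost under median-of-ratios scaling, with no filter on low values, and in 9 of 10 fits without 1 lung (limma adjusted p up to 0.104), all but that without IPF replicate 1, whereas Fcgr1 was called in all 10. The abundant cathepsins were not called, with Ctsd at 133 and 116 FPKM in IPF and sham, Ctss at 101 and 77.5 (log2 fold change 0.38, limma adjusted p = 0.102) and Ctsb at 81.9 and 80.4. Of 15 lysosomal genes 0 were called by limma (2 at an unadjusted p under 0.05) and the median log2 fold change was 0.12.

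**Figure D4:**
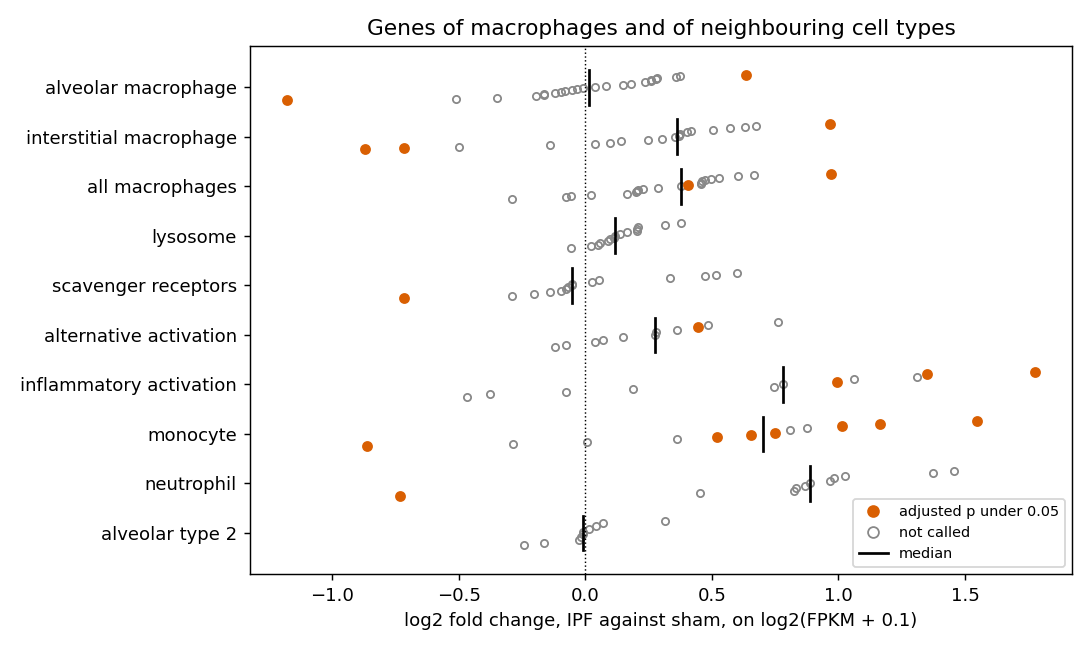
Log2 fold change of IPF against sham (horizontal axis, on log2(FPKM + 0.1)) for each tested gene of 10 lists, with genes at an adjusted p under 0.05 filled in orange, the others as open circles, and the list's median as a black line. Monocyte genes have a median of 0.70 and alveolar macrophage genes one of 0.02.

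Partners of C1q and the signals that maintain macrophages were also read. In the classical complement list 0 of 9 tested genes were called by limma, 3 were under 0.05 unadjusted, and the median was 0.15. The proteases that C1q activates had 29.1 and 26.9 FPKM (C1ra) and 49.2 and 46.0 (C1s1) in IPF and sham, and their inhibitor Serping1 had 207 and 187. Csf1, the growth factor of macrophages and monocytes, rose from 9.27 ± 0.75 to 12.2 ± 1.09 FPKM with no overlap between groups (0.39 ± 0.08, limma adjusted p = 0.0135), as 1 of 9 genes tested of the colony-stimulating factor list. The call of Csf1 was lost with the replicate number as a block. Its receptor Csf1r had 27.1 and 23.6 FPKM (limma adjusted p = 0.0839), the alternative ligand Il34 10.6 and 12.7, and Csf2, which encodes GM-CSF, 1.82 and 1.71. Of 15 scavenger and phagocytic receptors only Cd163 was called.

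A few activation genes were called. Of 11 genes of alternative activation, a list that holds Chil3 and Mrc1, only Il4ra, the receptor chain for IL-4 and IL-13, was called, from 18.0 ± 1.19 to 24.5 ± 1.5 FPKM (0.45 ± 0.06, limma adjusted p = 0.00257). Retnla had 60.7 and 55.7 FPKM in IPF and sham. Of 11 inflammatory genes 8 had an unadjusted p under 0.05, beside 19.5% of all genes, and the median log2 fold change was 0.78. Among them 3 were called, all higher and all chemokines at about 1 FPKM or less: Cxcl10 (1.02 and 0.492 FPKM, limma adjusted p = 0.0402), Ccl2 (0.613 and 0.106, limma adjusted p = 0.0371) and Ccl4 (0.896 and 0.324, limma adjusted p = 0.0441). Without single lungs these calls were lost in 8, 7 and 9 of 10 fits. All 3 were also lost with no filter on low values and with the replicate number as a block. Ccl2 was further lost at pseudocounts of 1 and 0.01, and Ccl4 at a pseudocount of 0.01 and by voom. Il1b, which encodes interleukin-1β, had 1.38 to 7.71 FPKM in IPF and 0.787 to 1.17 in sham, with no overlap, and was not called (1.31 ± 0.37, limma adjusted p = 0.0635). Of 9 genes of lipid-associated macrophages 1 was called, Spp1.

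Markers of other leukocytes moved with the groups, and their part in the macrophage values was not tested. Of 12 monocyte genes 6 were higher and 1 lower in IPF, 10 had an unadjusted p under 0.05, and the median log2 fold change was 0.70. Plac8 had 22.6, 25.7, 28.3, 24.2 and 27.6 FPKM in IPF and 5.11, 10.2, 10.4, 7.54 and 12.0 in sham, with no overlap (1.55 ± 0.20, limma adjusted p = 0.00146). Ly6c2, of classical monocytes, rose from 1.95 ± 0.34 to 4.01 ± 0.47 FPKM (limma adjusted p = 0.00143), and Ccr2, their chemokine receptor, rose from 3.64 ± 0.61 to 5.80 ± 1.01 (limma adjusted p = 0.0244). Treml4, of non-classical monocytes, rose from 1.37 ± 0.45 to 3.21 ± 1.11 FPKM (limma adjusted p = 0.0180). Vcan, a matrix proteoglycan that classical monocytes make, was the lower gene, at 1.69 ± 0.25 FPKM in sham and 0.910 ± 0.29 in IPF with no overlap (-0.86 ± 0.21, limma adjusted p = 0.0322). Leaving out single lungs ended the call of Ccr2 in 4 of 10 cases (IPF replicates 2, 3 and 4 and sham replicate 4) and that of Vcan in 6 of 10 (IPF replicates 1 and 2 and sham replicates 1, 3, 4 and 5). The summed monocyte list, which Ace of the endothelium dominates, ranged from 258 to 420 FPKM in IPF and from 328 to 365 in sham.

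Genes common to leukocytes were called in 4 of 6 cases, all higher, with sums of 133 to 160 FPKM in IPF and 72.5 to 112 in sham. Of these, Ptprc and Rac2 were called in all 10 fits without 1 lung, while Cd52 lost its call in 6 (IPF replicates 2 to 5 and sham replicates 3 and 5) and Cd53 in 7 (IPF replicates 1 to 5 and sham replicates 3 and 4). Of 7 lymphocyte genes 4 were higher (sums 23.1 to 33.2 against 12.3 to 19.3 FPKM), of which Cd4 lost its call in 9 of 10 fits without 1 lung. Cd4 also lost it with no filter on low values, with the replicate number as a block and by voom. Of 7 dendritic cell genes 0 were called by limma (1 at an unadjusted p under 0.05, sums 39.9 to 54.2 against 35.6 to 44.4). Of 11 neutrophil genes 10 had a positive log2 fold change (median 0.89) and 7 an unadjusted p under 0.05, but the only one called, Lcn2, was lower (a call lost in 4 of 10 fits without 1 lung), with sums of 79.6 to 334 FPKM in IPF and 48.8 to 121 in sham. The sums of the 3 macrophage lists overlapped between groups, as did those of the monocyte, neutrophil and dendritic lists: 508 to 759 against 475 to 697 FPKM for the alveolar, 1860 to 2998 against 2600 to 3530 for the interstitial, which Cbr2 dominates, and 4427 to 6001 against 3710 to 5887 for the general list, which Lyz2 dominates.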

How the data were processed

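Whole-lung mRNA of 5 IPF and 5 sham mice was analysed. The authors used Fastp for trimming, HISAT2 for alignment and StringTie for quantification, and the values they deposited are FPKM of genes. The methods name GRCm39, but the deposited gene positions are those of GRCm38; the submitters' processing notes list Bowtie 0.12.2. The methods name a KAPA mRNA HyperPrep kit and the sample records NEBNext Ultra. Every value was a whole multiple of 1 read per gene and sample (tolerance 0.05), which gave the depths; p-values measure the spread between these mice.

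IPF and sham were compared with limma 3.58.1 in R 4.3.3 (trended empirical Bayes, no covariate) after log2(FPKM + 0.1), over genes averaging 0.1 FPKM or more, with Benjamini-Hochberg adjustment; fold changes on this scale understate those of low genes. An adjusted p under 0.05 counted as a call. The script was tested on simulated data with a dispersion of 0.03. It called 76 of 100 genes changed 2-fold, 9 of 100 changed 1.5-fold, and 5 unchanged genes. Most 1.5-fold changes were thus missed in that simulation. The count tool of the study's methods was not used. The main fit took the deposited FPKM, and the recovered reads were fitted only with voom. Tables, exact permutation tests and figures were made in Python 3.11.15 with pandas 2.3.3, numpy 2.4.6, scipy 1.17.1 and matplotlib 3.10.9. Promoter windows came from RefSeq, where 8 of 10 genes matched (not C1qa and Adgre1).

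The 10 genes and the 19 lists were chosen with earlier results of these data known. The text names all 10 genes, of each list the called genes (up to 6) and up to 3 abundant genes not called, and the 5 genes most correlated with each trio. Siglecf, Itgax, Pparg, Lyve1, Il34, Csf2, C1ra, Il1b and the eosinophil genes were named outside this rule, after their values were seen. Some genes of the lists are counted but not reported by name here. Same-numbered IPF and sham samples deviated together little over all genes compared (r from -0.04 to 0.17, over 0.1 in 1 of 5 pairs), so the numbers were not taken as pairs. With the number as a block C1qa and C1qc were called, and whether these genes alone deviated together by number was not tested. Alternatives were other pseudocounts (1 and 0.01), a filter at 1 FPKM or none, median-of-ratios scaling, the replicate number as a block, voom on recovered reads and leaving out each sample. No 2 libraries were copies (chi-square per degree of freedom between samples of a group at least 4.49). Raw reads were not analysed here.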

Additional observations from a re-analysis of the deposited data

Results flagged for a closer look

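In 22 sets of 5 lungs checked for a value far from the rest of its group, 3 single lungs stood apart, and chance alone gives about 1 in 20. C1qb was 33.5 FPKM in IPF replicate 3, the highest of its group and farther above the other 4 IPF lungs than these were from each other. Cd68 was 25.3 FPKM in IPF replicate 4, where Adgre1 and Ear2 were also the highest of the group. Mrc1 was 16.7 FPKM in sham replicate 5, which was the highest sham lung for 5 of the 10 macrophage genes.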

How the results depend on the processing

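Over 17 alternative settings, 164 of 170 fold changes of the 10 macrophage genes kept their direction and their side of the threshold, 3 passed it and 3 changed sign. With the replicate number as a block, 2 of 10 were called, against 5.11% of all genes in that fit, C1qa (log2 fold change 0.303, limma adjusted p = 0.0368) and C1qc (0.374, limma adjusted p = 0.0204). The block also ended the calls of Csf1, Cd163, Vcan, Cxcl10, Ccl2, Ccl4 and Cd4. Only 2 of 5 samples correlated best with their own number, and 1 of 5 pairs had a correlation over 0.1. Leaving out each lung gave 0 to 1 genes called, the 1 being Ear2 without sham replicate 5 (0.482). Mrc1 ranged from -0.191 to 0.0652 and changed sign without IPF replicate 1 (0.00983) or sham replicate 5 (0.0652). Marco ranged from -0.253 to 0.0151 and changed sign without IPF replicate 2 (0.0151). The alveolar minus interstitial difference stayed between -0.296 and -0.127. Of the 55 other macrophage genes tested, 7 were called, beside 5.85% of all genes. The count was 11 of 50 with a mean of at least 1 FPKM (9.55% of all genes), 13 by voom (7.16%), and 4 to 10 without 1 lung. The lowest, 4, came without IPF replicate 2 (3.93% of all genes). The highest, 10, came without IPF replicate 5 (7.88%) and without sham replicate 5 (4.79%), and the cause was not tested. Of 29 called genes of the cell type and macrophage lists, 16 were called in all 10 fits without 1 lung and 13 were not in at least 1. The 95% intervals give the changes that these lungs leave possible for each gene.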

Other observations

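After subtracting group means, the mean log2(FPKM + 0.1) of C1qa, C1qb and C1qc correlated most with Mcee, an enzyme of propionate breakdown in mitochondria (Pearson r = 0.98 over 10 lungs among 13435 genes compared), Trappc1, of vesicle tethering (0.97), 1810022K09Rik (0.97), Tifa, a signalling adaptor (0.97), and mitochondrial thioredoxin Txn2 (0.96). Without sham replicate 1, which was lowest for all 3 C1q genes, these were 0.95, 0.92, 0.93, 0.93 and 0.91. Of the 5 only Tifa was called between IPF and sham (log2 fold change 0.44, limma adjusted p = 0.0443).

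The mean of Marco, Chil3 and Ear2 followed Snx5, a sorting nexin of endosomes (0.96), Vav1, a signalling protein of blood cells (0.91), Slc25a5, a mitochondrial carrier (0.91), Myo1f, a leukocyte myosin (0.91), and Copb1, a vesicle coat subunit (0.90). Myo1f was the only one called (0.61, limma adjusted p = 0.00296). These genes were picked as the highest of many correlations, so their r values are descriptions with no test, and the lungs share library and tissue sampling across genes.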
